A study of Mus musculus with 12 samples.

Results

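The study found genes mis-regulated in mice lacking the chromatin remodelling factor BAZ1A on all autosomes, without evidence that they cluster locally. A few of these genes lie side by side. Described here are 7 of them, in 2 runs: Rhou, Rab4a and Ccsap on mouse chromosome 8, and Alpk2, Malt1, Zfp532 and Sec11c on chromosome 18. They are 7 of the 14775 named genes with a tested probe, and were selected on the difference between Baz1a-/- and Baz1a+/- spermatids, so for that comparison they are described without a test. Every probe that the platform annotation assigns to one of these symbols was taken, which gave 11 of the 45281 probes of the array. Of these, 9 were detected on at least 1 of the 11 arrays used and were tested. The other 2, ILMN_2419951 of Malt1 and ILMN_1242933 of Zfp532, were not detected on any of the 12 arrays. The study's own list of altered probes names 2 more, ILMN_2728584 for Alpk2 and ILMN_1244953 for Malt1. They are shown beside the 11 but are outside the rule, since that list holds only probes that had passed a threshold.

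RNA came from Baz1a-/- round spermatids (3 arrays), Baz1a+/- round spermatids (3), Baz1a-/- pachytene/diplotene spermatocytes (2 used) and Baz1a+/- spermatocytes (3), with both cell types sorted from the same adult mice, 3 of each genotype. The Baz1a-/- mice carry a germline deletion of exon 6 on both copies of the gene, which was made with a Stra8-Cre transgene in a founder and descends from 1 targeted ES cell clone. Their littermate controls, Baz1a+/-, carry the same deletion on 1 copy, so no group is wild type. All animals were of mixed C57BL/6J and FVB/NJ background. Cells were separated on Hoechst staining of their DNA, and the spermatocyte array of Baz1a-/- replicate 1 was set aside by the study for its content of spermatid RNA. Its values are given beside the others but enter no fit.

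BAZ1A, also called ACF1, partners the ISWI ATPase SMARCA5 in complexes that space nucleosomes along DNA. Spermatocytes complete meiosis and become haploid round spermatids, which switch on a large postmeiotic transcription program before they elongate. The 7 genes have products of several kinds. Rhou encodes an atypical small GTPase that responds to Wnt signalling, Rab4a a small GTPase of rapid endosomal recycling, and Ccsap a protein of centrioles, cilia and spindles. Alpk2 encodes an alpha-kinase, Malt1 the paracaspase that relays antigen-receptor signals to NF-kB, Zfp532 a zinc finger protein, and Sec11c a catalytic subunit of the signal peptidase that cleaves signal sequences from secretory proteins.

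The promoters of the genes that were higher in the mutant within the first run are shown because they can be set side by side and because that of Ccsap adjoins a second mis-regulated transcript. RefSeq windows were matched for 2 of the 7 genes, Rhou and Ccsap (GRCm38.p6). The array files name no build, so these positions come from the reference alone. Each line gives the 250 bases before an annotated start, read 5′ to 3′ on the gene's own strand, with GC boxes (GGGCGG on either strand) in capitals. The Rhou window is chr8:123653679-123653928 on the plus strand, and that of the outermost mRNA start of Ccsap is chr8:123859469-123859718 on the minus strand.
Rhou: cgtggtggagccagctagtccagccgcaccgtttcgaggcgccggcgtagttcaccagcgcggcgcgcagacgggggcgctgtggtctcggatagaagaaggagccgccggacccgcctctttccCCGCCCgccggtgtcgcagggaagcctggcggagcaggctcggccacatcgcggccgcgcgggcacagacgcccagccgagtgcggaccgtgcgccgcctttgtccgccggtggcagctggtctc
Ccsap: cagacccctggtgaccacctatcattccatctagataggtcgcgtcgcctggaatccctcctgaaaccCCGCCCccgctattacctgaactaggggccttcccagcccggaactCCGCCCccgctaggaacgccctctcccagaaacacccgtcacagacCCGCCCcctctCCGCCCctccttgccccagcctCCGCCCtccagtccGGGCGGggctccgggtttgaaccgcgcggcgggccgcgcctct
The Rhou window held 1 GC box and the Ccsap window 6. Among 32851 RefSeq promoter windows of this length, 32.7% held at least 1 GC box and 0.886% held 6 or more. Neither window contained a CCAAT box (CCAAT, 33.8% of windows), a TATA box (TATAAA, 12.4%) or a full cAMP response element (TGACGTCA, 1.55%) on either strand. Ccsap has a second annotated start downstream, whose window (chr8:123858876-123859125) held 0 GC boxes and 1 CCAAT box. These are matches of letters only. The start of Gm9901, an annotated long noncoding RNA on the opposite strand, lies 13 bases from the outermost Ccsap start. Transcripts of Gm9901 and those from the outermost Ccsap start thus overlap at their 5′ ends, which does not hold for the downstream Ccsap start. Whether the array probes of Ccsap and Gm9901 each see 1 strand is not given in the sources used here.

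Signals below are normalized log2 values. A probe was scored as detected on an array where its detection p was under 0.05, and as called in a comparison where the change was at least 2-fold with an adjusted p under 0.05. Differences are given as Baz1a-/- minus Baz1a+/- or as spermatids minus spermatocytes, from 1 fit in which arrays were weighted, so they can differ slightly from the difference of the plain means.

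In spermatids Rhou stood far apart from the other genes of its run. It read 9.22, 8.99 and 8.97 in the 3 Baz1a-/- spermatid arrays, against 6.20, 5.65 and 5.43 in the 3 Baz1a+/- spermatid arrays. All 6 arrays detected it and the groups were separated by more than 2 log2 units. The difference was 3.35 ± 0.20 (SE), or 10.2-fold, the 20th largest in size of 28751 tested probes. Rab4a went the other way. Its probe read 4.29, 4.53 and 4.41 in Baz1a-/- spermatids, with no array detecting it, against 5.95, 5.18 and 5.33 in Baz1a+/- spermatids, where all 3 detected it. The difference was -1.02 ± 0.24 (SE). Since the mutant level is only a bound, control spermatids were at least 1.59-fold brighter, taking for each mutant array the higher of the probe's own value and the lowest signal of any detected probe. Ccsap read 6.04, 7.29 and 7.83 in Baz1a-/- spermatids against 5.03, 6.16 and 5.69 in Baz1a+/- spermatids. Here the groups overlapped, as mutant replicate 1 lay below control replicate 2, and the difference was 1.52 ± 0.36 (SE), or 2.86-fold. Without mutant replicate 3 it was 0.98, under 2-fold.

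**Figure D1:**
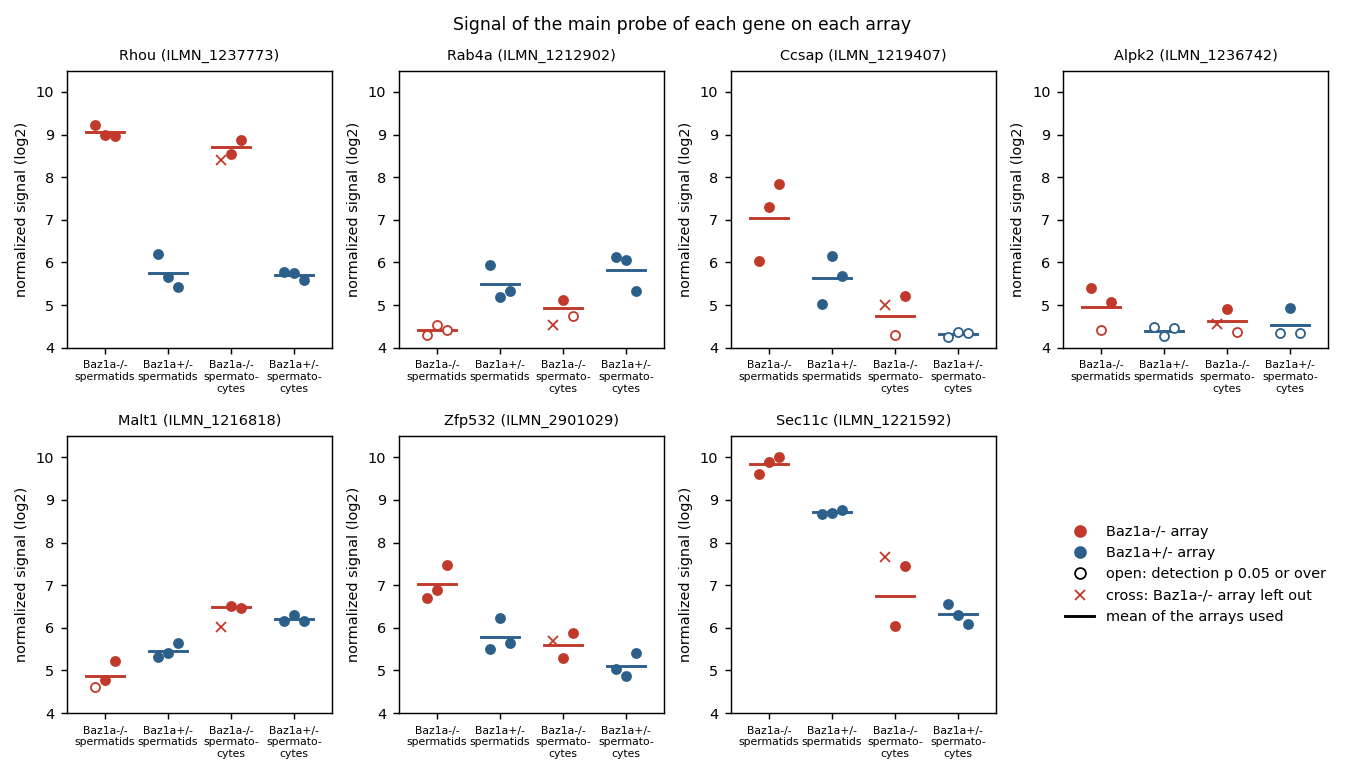
Normalized log2 signal of the main probe of each gene (the tested probe with the highest mean) on each array, by genotype and cell type. Points are arrays, open where the probe was not detected, crosses are the Baz1a-/- spermatocyte array left out, and bars are means of the arrays used; Rhou is above all control arrays in both mutant cell types, while Sec11c and Ccsap are higher in spermatids of both genotypes than in spermatocytes.

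In the second run Sec11c and 1 of the 3 probes of Zfp532 were at least 2-fold higher in mutant spermatids. Sec11c read 9.60, 9.89 and 10.01 in Baz1a-/- spermatids and 8.68, 8.70 and 8.76 in Baz1a+/- spermatids. The groups did not overlap, and the SD of the control arrays was 0.04 (n = 3). The difference was 1.15 ± 0.24 (SE), or 2.22-fold. The brighter Zfp532 probe, ILMN_2901029, read 6.70, 6.88 and 7.47 in Baz1a-/- spermatids against 5.50, 6.23 and 5.64 in Baz1a+/- spermatids, a difference of 1.27 ± 0.25 (SE), or 2.42-fold. Its other tested probe, ILMN_2438849, read 5.45, 6.24 and 6.43 in Baz1a-/- spermatids against 5.41, 5.78 and 5.51 in Baz1a+/- spermatids. These groups overlapped, and the difference of 0.54 ± 0.21 (SE) was 1.45-fold.

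Probes of Alpk2 and of Malt1 disagreed with each other. The main Alpk2 probe, ILMN_1236742, read 5.41, 4.41 and 5.08 in Baz1a-/- spermatids, detected on 2 of the 3 arrays, against 4.48, 4.27 and 4.46 in Baz1a+/- spermatids, where no array detected it. The groups overlapped, as mutant replicate 2 lay below control replicates 1 and 3, and the difference was 0.54 ± 0.24 (SE). A further probe, ILMN_1254484, stayed between 4.45 and 4.80 in Baz1a-/- spermatids and between 4.59 and 4.90 in Baz1a+/- spermatids and was detected on 1 of the 6 arrays. The probe named only by the study's list, ILMN_2728584, read 5.61, 6.32 and 5.64 in Baz1a-/- spermatids, all detected, against 4.62, 4.49 and 4.45 in Baz1a+/- spermatids, none detected, so mutant spermatids were at least 2.07-fold brighter there.

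For Malt1 the sign itself depended on the probe. The main probe, ILMN_1216818, read 4.61, 4.78 and 5.22 in Baz1a-/- spermatids and 5.31, 5.41 and 5.64 in Baz1a+/- spermatids, every mutant array below every control, with a difference of -0.56 ± 0.18 (SE). The probe taken from the study's list, ILMN_1244953, read 5.63, 6.38 and 5.92 in Baz1a-/- spermatids and 4.88, 4.83 and 5.16 in Baz1a+/- spermatids, every mutant array above every control, with a difference of 1.02 ± 0.23 (SE). Which part of the Malt1 transcript each probe covers is not given in the sources used here. Over the 9 tested probes of the rule, 5 passed the threshold for a call in the comparison that chose the genes, and 5 had groups that did not overlap. Over all tested probes 2.91% were called higher and 1.18% lower in mutant spermatids, and 23% had groups that did not overlap. Nothing is read from these counts, because the genes were chosen on this difference. Closest to the threshold were Rab4a on the inside, at -1.02, and on the outside Malt1 at -0.56 and the main Alpk2 and second Zfp532 probes, both at 0.54. Without background correction these differences were more than 1.5 times smaller for Rhou (2.13), Rab4a (-0.35), Ccsap (0.77), the main probes of Alpk2 (0.2), Malt1 (-0.17) and Zfp532 (0.63), but not for Sec11c (1).

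**Figure D2:**
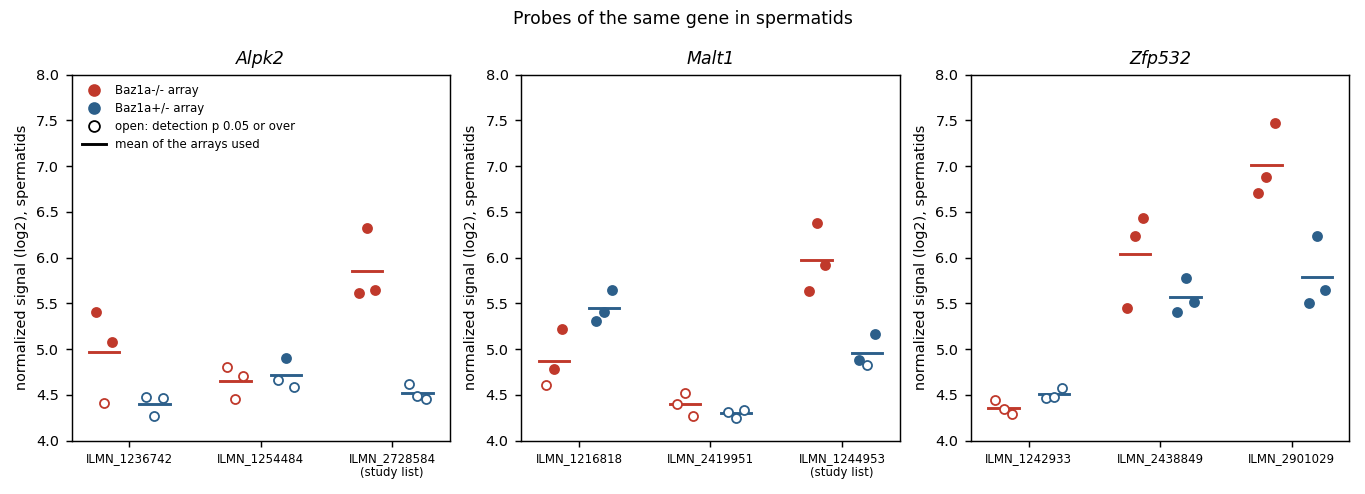
Normalized log2 signal in spermatids of every probe of Alpk2, Malt1 and Zfp532, with Baz1a-/- arrays left of Baz1a+/- arrays for each probe; open points are arrays where the probe was not detected and bars are group means. The 2 brighter Malt1 probes move in opposite directions, and the probes marked as from the study list, 1 each for Alpk2 and Malt1, were chosen by their call.

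Most genes beside the runs were not called between genotypes, with Gm9901 and Taf5l as the exceptions. The runs were chosen as neighbouring genes altered in spermatids, so uncalled genes at their ends follow in part from that choice. Between the members no other gene had a tested probe. The 8 genes between Rhou and Ccsap are all long noncoding RNAs with no probe in the platform annotation, and of the 7 between Alpk2 and Sec11c only Oacyl codes for protein, with a probe that was not detected on the arrays used. Each run was flanked by 10 genes with a tested probe, 5 on each side. Around Alpk2 to Sec11c, none of the 15 probes of the flanking genes was called in spermatids (differences of -0.35 to 0.62), the highest being Nedd4l, a ubiquitin ligase, at 0.62 ± 0.21 (SE, adjusted p = 0.094). Around Rhou to Ccsap, 2 of 17 probes were called, 1 in each direction. Of all tested probes, 2.91% were called higher and 1.18% lower in mutant spermatids, and nothing is read from the counts of flanking probes.

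Gm9901, which adjoins Ccsap, was higher in mutant spermatids. It read 6.97, 8.05 and 8.43 in Baz1a-/- spermatids and 5.76, 6.49 and 6.29 in Baz1a+/- spermatids, with a difference of 1.71 ± 0.30 (SE, adjusted p = 0.00373). As with Ccsap, mutant replicate 1 was the lowest of its group and control replicate 1 the lowest of the controls. Taf5l, which encodes a subunit of histone acetyltransferase complexes, fell. It read 6.17, 6.39 and 6.58 in Baz1a-/- spermatids against 7.58, 7.74 and 8.12 in Baz1a+/- spermatids, a difference of -1.45 ± 0.22 (SE, adjusted p = 0.00114). The Acta1 and Nup133 probes between them differed by -0.25 to -0.02 and were not called, nor were the 5 genes before Rhou, from Tubb3 to Gas8 (-0.17 to 0.53).

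**Figure D3:**
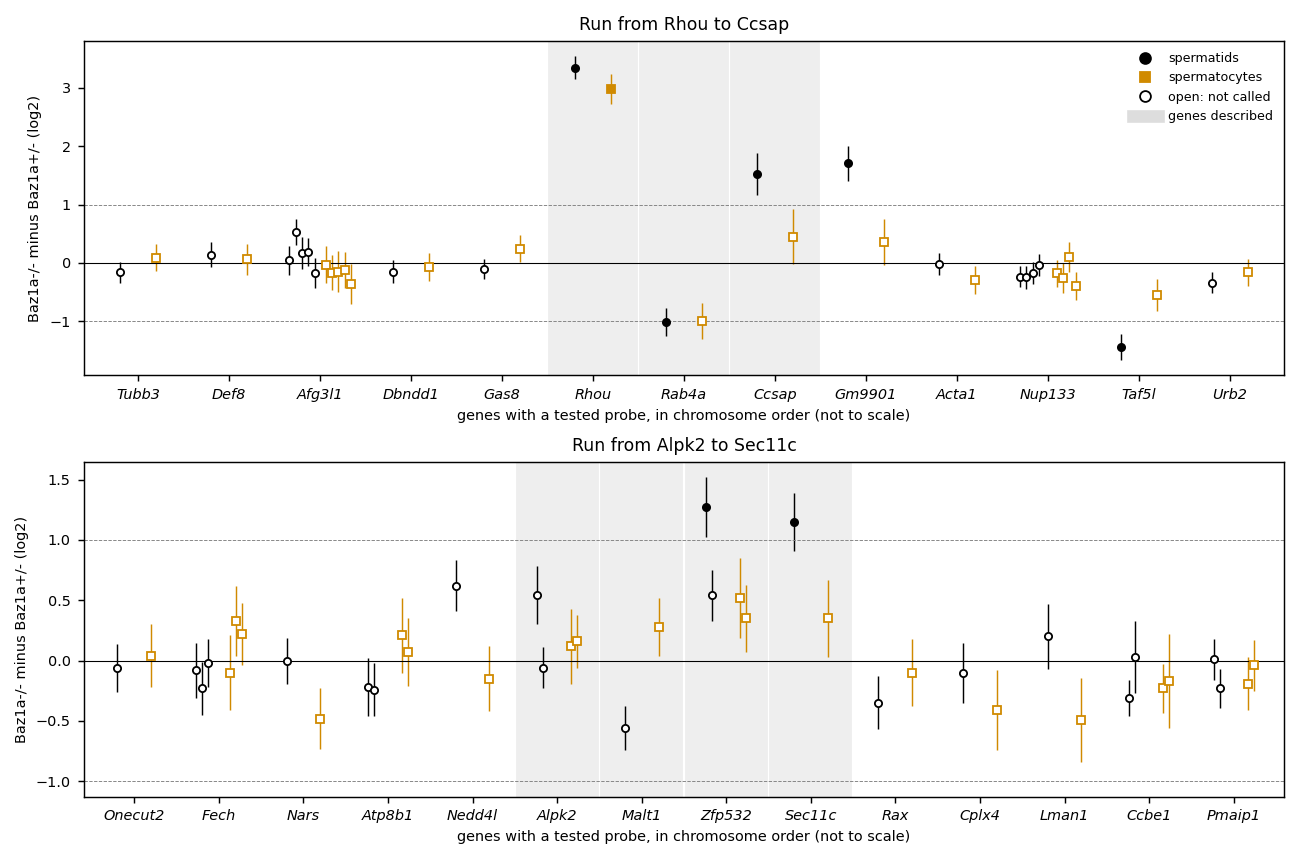
Difference in log2 signal between Baz1a-/- and Baz1a+/- cells for every tested probe of the 2 runs (shaded) and of 5 flanking genes on each side, in chromosome order, with standard errors; circles are spermatids, squares spermatocytes, filled where the change was at least 2-fold with an adjusted p under 0.05, and dashed lines mark a 2-fold change. Shaded spermatid values chose the genes; outside the shading only Gm9901 and Taf5l are filled.

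**Figure D4:**
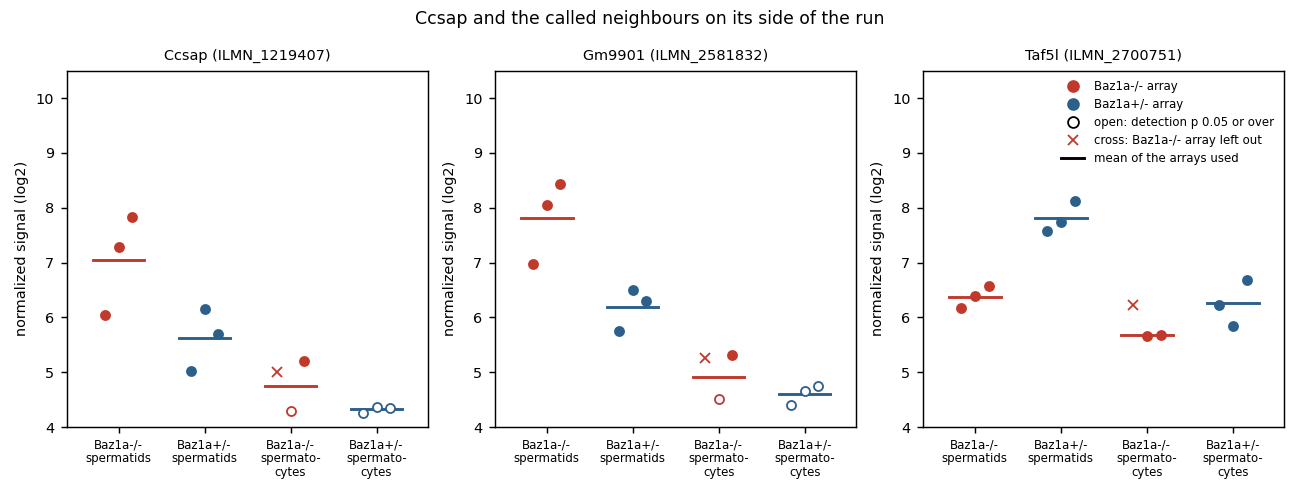
Normalized log2 signal of Ccsap, Gm9901 and Taf5l on each array, by genotype and cell type; open points are arrays where the probe was not detected, crosses the array left out and bars group means. Gm9901 and Ccsap have a Pearson r of 0.987 over the 11 arrays in the fit, and Taf5l is lower in each Baz1a-/- spermatid array than in each Baz1a+/- spermatid array.

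The genes were not chosen on spermatocytes, so this comparison can be tested. Of the 9 tested probes, 1 rose and 0 fell in mutant spermatocytes, against 0.261% called higher and 0.150% called lower over all tested probes. At 4 of the 9 probes the genotypes did not overlap, against 20.3% of all tested probes. The probe that rose was Rhou. It read 8.54 and 8.87 in the 2 Baz1a-/- spermatocyte arrays against 5.78, 5.75 and 5.60 in Baz1a+/- spermatocytes, a difference of 2.98 ± 0.26 (SE), or 7.87-fold (adjusted p = 0.000244). This was the 4th largest in size of all tested probes. The spread in this fit is shared with the spermatid arrays. With only the 2 spermatocyte groups fitted, the adjusted p of Rhou was 0.0291. The array left out read 8.41, also above every control.

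Rab4a did not pass the test in spermatocytes. It read 5.11 and 4.74 in Baz1a-/- spermatocytes, the second not detected, against 6.12, 6.05 and 5.32 in Baz1a+/- spermatocytes. The groups did not overlap, and the difference was -1 ± 0.31 (SE, adjusted p = 0.404). The array left out read 4.54 and was not detected; with it in the fit the difference was -1.21 and the adjusted p 0.0102, which is past the threshold.

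Sec11c, Ccsap and the main Zfp532 probe differed between the mutant spermatocyte arrays themselves. Sec11c read 6.03 and 7.44 in Baz1a-/- spermatocytes against 6.55, 6.30 and 6.09 in Baz1a+/- spermatocytes, and 7.67 on the array left out. Its difference was 0.35 ± 0.32 (SE, adjusted p = 1), 1.05 without mutant replicate 2 (adjusted p = 0.049) and -0.36 without mutant replicate 3. Ccsap was detected on 1 of the 2 mutant arrays, at 5.21, and on none of the controls, which read 4.25 to 4.37, with a difference of 0.45 ± 0.47 (SE, adjusted p = 1). Zfp532 read 5.29 and 5.88 in Baz1a-/- spermatocytes against 5.03, 4.87 and 5.40 in Baz1a+/- spermatocytes, a difference of 0.52 ± 0.33 (SE, adjusted p = 1). Without mutant replicate 2 the difference was 0.91 for Ccsap and 0.82 for Zfp532, and without mutant replicate 3 it was 0 and 0.22 (none called). In each of these genes mutant replicate 3 was the highest of the spermatocyte arrays in the fit.

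Transcripts of round spermatids were also highest on that array. The mean log2 level of 8 spermatid markers, among them Prm1 and Tnp1, was 8.01 in Baz1a-/- spermatocyte replicate 2, 9.85 in replicate 3 and 10.24 in the array left out, against 8.79, 7.26 and 8.70 in Baz1a+/- spermatocytes. In Baz1a-/- spermatids it was 11.28 to 11.32, and in Baz1a+/- spermatids 11.06 to 11.23. Of the pachytene/diplotene markers, Sycp3 and Hormad1 were not detected on any array in the fit, and the summed signal of the 5 tested was 14210 to 15611 in Baz1a-/- and 14355 to 16220 in Baz1a+/- spermatocytes. Most of that sum was Piwil1 (mean log2 level 13.74 in Baz1a-/- and 13.66 in Baz1a+/- spermatocytes). Between control spermatids and control spermatocytes Piwil1 differed by -3.39 and Spag6 by 3.8, both called, and the other 3 were not called. None of the 8 spermatid markers was called between genotypes in either cell type. In the study's own counts of sorted spermatocytes, Baz1a-/- replicate 2 was purer than Baz1a-/- replicate 3. Baz1a+/- replicate 1 was the least pure of those counted, and the array left out had no count. The counts did not follow the marker level throughout. Baz1a+/- replicate 3 was counted purer than Baz1a+/- replicate 2, yet its marker level was higher (8.70 against 7.26). The part of spermatid RNA in the Sec11c, Ccsap and Zfp532 values was not tested. Rhou read 8.54 on replicate 2, 8.87 on replicate 3 and 8.41 on the array left out. In bulk samples such as these, fewer cells of a type and less RNA per cell cannot be told apart.

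**Figure D5:**
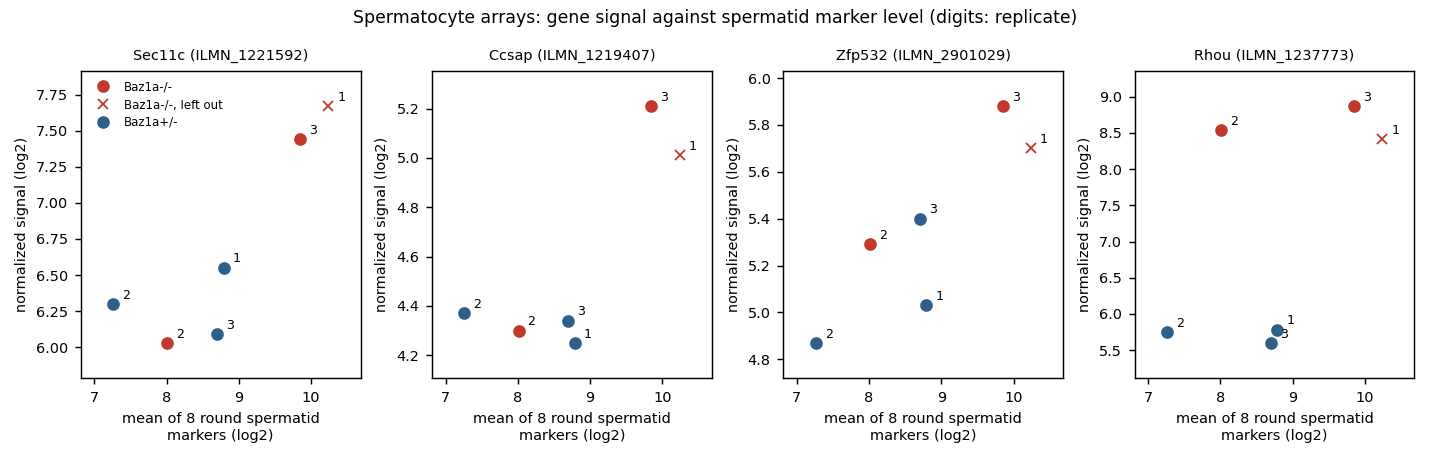
Normalized log2 signal of Sec11c, Ccsap, Zfp532 and Rhou on the 6 spermatocyte arrays (vertical) against the mean log2 level of 8 round spermatid markers on the same array (horizontal); digits are replicate numbers and crosses the Baz1a-/- array left out. The Baz1a-/- arrays 3 and 1 lie to the right, where Sec11c, Ccsap and Zfp532 read highest, while Rhou reads 8.41 to 8.87 on the 3 Baz1a-/- arrays and 5.60 to 5.78 on the 3 Baz1a+/- arrays.

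None of the remaining probes was called in spermatocytes. The main Malt1 probe read 6.5 and 6.47 in Baz1a-/- spermatocytes against 6.17, 6.30 and 6.15 in Baz1a+/- spermatocytes, a difference of 0.28 ± 0.24 (SE, adjusted p = 1). The mutant arrays in the fit lay above every control, the opposite of the order in spermatids, but the array left out read 6.01, below every control. The second Zfp532 probe also had groups that did not overlap, with a difference of 0.35 ± 0.28 (SE, adjusted p = 1). The Alpk2 probes differed by 0.12 ± 0.31 and 0.16 ± 0.22 (SE), the main one detected on 1 of 2 mutant and 1 of 3 control arrays and the other on none. The 2 probes of the study's list, ILMN_2728584 and ILMN_1244953, differed by 0.12 ± 0.26 and 0.20 ± 0.29 (SE).

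In control mice Sec11c and Ccsap rose between meiotic and postmeiotic cells, while no difference in Rhou was detectable. This comparison used the same control spermatid arrays on which the genes were chosen. Of the 9 tested probes, 2 rose and 0 fell, against 13.1% called higher and 15.3% called lower over all tested probes, and at 5 the cell types did not overlap, against 51.4%. Sec11c read 8.68 to 8.76 in Baz1a+/- spermatids and 6.09 to 6.55 in Baz1a+/- spermatocytes, a difference of 2.34 ± 0.23 (SE), or 5.07-fold (adjusted p = 1.55e-06). Ccsap read 5.03 to 6.16 in Baz1a+/- spermatids and was not detected in Baz1a+/- spermatocytes, a difference of 1.37 ± 0.34 (SE, adjusted p = 0.00457), with spermatids at least 1.76-fold brighter. The Ccsap call was lost with an offset of 50 in the background correction (0.68, adjusted p = 0.0578) and without background correction, where the difference of 0.51 was under 2-fold. Both Zfp532 probes were higher in control spermatids, by 0.74 ± 0.24 (SE, adjusted p = 0.0199) and 0.77 ± 0.20 (SE, adjusted p = 0.00599), short of a 2-fold change. The main Malt1 probe was lower by a like amount, at -0.72 ± 0.17 (SE, adjusted p = 0.00307). Rab4a differed by -0.48 ± 0.22 (SE, adjusted p = 0.101), the main Alpk2 probe by -0.11 ± 0.23 (SE, adjusted p = 0.744) and Rhou by -0.04 ± 0.19 (SE, adjusted p = 0.904).

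The same step in the mutant is given as values only, since it shares the mutant spermatid arrays that chose the genes and rests on 2 spermatocyte arrays. Mutant spermatids minus mutant spermatocytes came to 3.14 ± 0.33 for Sec11c, 2.44 ± 0.49 for Ccsap, 1.49 ± 0.34 for Zfp532 and -1.57 ± 0.24 for the main Malt1 probe (SE). For Rhou it was 0.33 ± 0.27 and for Rab4a -0.51 ± 0.32 (SE). Ordered by mean signal, Sec11c ran from Baz1a-/- spermatids (9.84 ± 0.21, SD, n = 3) through Baz1a+/- spermatids (8.71 ± 0.04, SD, n = 3) to Baz1a-/- spermatocytes (6.73 ± 1, SD, n = 2) and Baz1a+/- spermatocytes (6.32 ± 0.23, SD, n = 3), and the spermatocyte groups overlapped. Rhou followed genotype, at 9.06 ± 0.14 in Baz1a-/- spermatids (SD, n = 3) and 8.71 ± 0.23 in Baz1a-/- spermatocytes (SD, n = 2) against 5.76 ± 0.39 in Baz1a+/- spermatids and 5.71 ± 0.10 in Baz1a+/- spermatocytes (SD, n = 3 each), and the control groups overlapped.

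Correlations over the 11 arrays describe how alike the genes were and carry the differences between the 4 groups with them. Main probes of Zfp532 and Ccsap, on different chromosomes, had a Pearson r of 0.95, Ccsap and Sec11c 0.91, and Zfp532 and Sec11c 0.87. Within the first run, Rhou and Ccsap had an r of 0.51 and Rhou and Rab4a -0.82. Among 23449 named probes of other genes, those most like Rhou were Evpl (0.990), which encodes envoplakin of desmosomes and the epidermal cornified envelope, Cnih3 (0.987), an AMPA receptor auxiliary protein, and Cldn5 (0.985), a tight junction protein of endothelium. Evpl averaged 9.14 in Baz1a-/- spermatids, 5.13 in Baz1a+/- spermatids, 8.51 in Baz1a-/- spermatocytes and 4.90 in Baz1a+/- spermatocytes. Nearest to Ccsap were Grm6 (0.988), a metabotropic glutamate receptor, Gm9901 (0.987) and Dennd2c (0.982). Gm9901 was the only one of the 21 nearest genes that lies beside its member. Nearest to Zfp532 were Nrcam (0.986), a cell adhesion molecule, Mx1 (0.972), an interferon-induced GTPase, and Epgn (0.971), an EGF-family ligand. Nearest to Sec11c were Ncoa4 (0.996), a ferritin receptor of autophagy, Tcerg1l (0.994) and Ampd1 (0.994), an AMP deaminase. For Rab4a they were Fancl (0.954), Rpusd3 (0.948) and 2810001G20Rik (0.944), for Malt1 Tor1a (0.978), Rnf214 (0.976) and Ruvbl1 (0.974), and for Alpk2, whose signal was close to background, Nfe2l2 (0.883), Sdhaf3 (0.872) and Rtbdn (0.869).

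In each list of pathway partners of Rab4a, Ccsap and the genes of the second run, at most 1 partner was called in mutant spermatids. Over all tested probes 2.91% were called higher and 1.18% lower there, and nothing is read from the counts. Apart from Rab4a, 1 of 20 early and recycling endosome genes fell in mutant spermatids, namely Rufy1, an effector of Rab4 and Rab14 that tethers endosomes, at 4.59 in Baz1a-/- and 6.54 in Baz1a+/- spermatids (difference -1.96 ± 0.18, SE, adjusted p = 2.67e-05). It was detected on 1 of 3 mutant spermatid arrays and on all 3 controls. In control development Rufy1 rose by 2.11 ± 0.17 (SE, adjusted p = 2.98e-07), at least 3.31-fold, since it was not detected in control spermatocytes. Apart from Sec11c, 1 of 17 signal peptidase and translocon genes fell, Sec61b, a subunit of the Sec61 channel, at 5.99 in Baz1a-/- and 7.07 in Baz1a+/- spermatids (difference -1.03 ± 0.28, SE, adjusted p = 0.0419). Sec11a, the paralog of Sec11c, differed by -0.63 ± 0.23 (SE, adjusted p = 0.131).

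Apart from Malt1, 1 of 13 genes of the CARD-BCL10-MALT1 module and NF-kB rose in mutant spermatids, Card10, a scaffold that assembles BCL10 and MALT1 outside lymphocytes, at 8.65 in Baz1a-/- and 6.6 in Baz1a+/- spermatids (difference 2.01 ± 0.32, SE, adjusted p = 0.00181). In control development Card10 also rose, by 2.05 ± 0.30 (SE, adjusted p = 6.59e-05), whereas Bcl10 fell by 1.28 ± 0.25 (SE, adjusted p = 0.000725). None of the 5 other tested genes listed with Zfp532, whose human ortholog binds ZNF592, ZNF687 and ZMYND8, was called in mutant spermatids, nor was any of the 4 other alpha-kinases or of 14 genes of tubulin polyglutamylation listed with Ccsap. In control development 5 of those 14 rose, among them the tubulin ligases Ttll9, at 10.44 in control spermatids and 7.31 in control spermatocytes, and Ttll7 (2.75 ± 0.23, SE), and 1 fell, Nicn1 (-1.68 ± 0.23, SE). Over all tested probes 13.1% were called higher and 15.3% lower in control development. Leaving out the members, the median log2 difference in spermatids was -0.12 for the endosome genes, -0.16 for signal peptidase and translocon, 0.02 for the MALT1 module, -0.4 for the Zfp532 list, -0.14 for alpha-kinases and 0.01 for tubulin polyglutamylation, against -0.03 over all tested probes. In mutant spermatocytes no gene of these lists was called, against 0.261% called higher and 0.150% called lower over all tested probes.

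Some markers of other cell types were called in mutant spermatids as well, where 2.91% of all tested probes were called higher and 1.18% lower. Of 5 tested endothelial markers 2 rose, Egfl7 and Cldn5, and the summed signal of the 5 was 1376 to 1597 in Baz1a-/- spermatids against 213 to 283 in Baz1a+/- spermatids. Most of that sum was Cldn5 (mean log2 level 10.27 in Baz1a-/- against 6.81 in Baz1a+/- spermatids). Egfl7 was at 7.24 against 5.34, while Pecam1 (difference 0.66), Cdh5 (-0.06) and Tek (0.09) were not called. In spermatocytes the same sum was 771 to 1028 in Baz1a-/- against 187 to 205 in Baz1a+/- cells, and there Cldn5 alone was called (9.61 in Baz1a-/- against 6.51 in Baz1a+/- spermatocytes, adjusted p = 7.52e-05). The endothelial receptor gene Kdr was not detected on any array in the fit. Of 6 tested myoid and fibroblast markers 2 rose in mutant spermatids, Lum and Igfbp7. Acta2 (difference 0.52), Dcn (1.07), Myh11 (-0.37) and Tagln (-0.15) were not called, and Col1a1 and Pdgfra were not detected. The summed signal of the 6 was 1789 to 1940 in Baz1a-/- against 361 to 454 in Baz1a+/- spermatids. In Baz1a-/- spermatids most of that sum was Igfbp7 and Lum (mean log2 level 10.04 and 8.98). Of 3 Leydig cell markers 2 rose, Cyp11a1 and Cyp17a1, while Star and Hsd3b1 were not detected. The sum of the 3 overlapped (426 to 2077 in Baz1a-/- against 176 to 858 in Baz1a+/- spermatids). Insl3, the brightest of the 3 (9.43 against 8.46), was not called. Among 6 macrophage markers 1 rose, Cd14, at a mean log2 level of 8.91 in Baz1a-/- and 6.18 in Baz1a+/- spermatids. Adgre1 (difference 0.49), Csf1r (-0.02), Lyz2 (-0.11) and Mrc1 (-0.32) were not called. The sum of the 6 was 4350 to 5617 in Baz1a-/- against 3164 to 3405 in Baz1a+/- spermatids, most of it Aif1 (11.99 against 11.58, not called), which was itself higher in control spermatids than in control spermatocytes by 4.28. Among 4 Sertoli cell markers 1 rose, Sox9, at 5.92 in Baz1a-/- and 4.75 in Baz1a+/- spermatids. Cldn11 (difference 0.29), Rhox5 (-0.26) and Inha (-0.59) were not called. The sum of the 4 overlapped (230 to 403 in Baz1a-/- against 204 to 415 in Baz1a+/- spermatids). No marker of spermatids, spermatocytes, spermatogonia or lymphocytes was called between the genotypes in spermatids. The part of these cells in the values of Rhou and the other genes was not tested.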

How the data were processed

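RNA was hybridised to Illumina MouseWG-6 v2.0 arrays, 12 in all. The deposited bead intensity of each probe and its detection p-value were exported by the authors from Illumina software (GenomeStudio 2011.1 in the submitters' processing notes) without background subtraction or normalization. The authors also deposited log2 values, corrected by normexp and quantile normalized with limma 3.12.1. They served as an alternative here and differed from the values used by at most 0.0244.

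Here intensities of all 12 arrays were background corrected by normexp with an offset of 16, negative controls being inferred from the detection p-values, then quantile normalized and put on the log2 scale (limma 3.58.1, R 4.3.3). Probes with a detection p under 0.05 on at least 1 of 11 arrays were fitted (28751 of 45281), with 1 mean per group, array weights, moderated variances and Benjamini-Hochberg adjustment over all tested probes; all adjusted p-values are from this limma fit. Steps were tested on simulated data. The number of arrays limits the precision, as no group holds more than 3 mice. The spread behind each p-value was estimated per probe over all groups together and moderated across probes. P-values in spermatocytes therefore rest in part on the spermatid arrays, including those that chose the genes.

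The genes and lists were chosen with earlier results of these data known. Genes named are the 7 with all probes, genes between them, the 5 nearest with a tested probe on each side (order from RefSeq GRCm38.p6), the 3 most correlated with each main probe, and called genes of the lists. The pathway lists are early and recycling endosome (21 genes), alpha-kinases (6), CARD-BCL10-MALT1 and NF-kB (21), the Zfp532 complex (7), signal peptidase and translocon (19) and tubulin polyglutamylation (15), each gene by its brightest tested probe. A further list is not reported here. Of the tested probes 23458 carried 1 symbol, 13 several and 5280 none. Baz1a itself is not analysed here.

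Spermatids and spermatocytes with the same replicate number come from the same mouse in the labels, which pairs the samples. Their deviations from the group means correlated at 0.00136 to 0.227 in the 3 control pairs and at -0.0423 and 0.143 in the 2 mutant pairs. Arrays of different mice correlated at -0.221 to 0.0737 in controls and -0.168 to 0.168 in mutants, where the deviations of the 2 spermatocyte arrays mirror each other. Alternatives comprised the background correction, normalization, filter, weights, arrays in the fit, blocks and threshold.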

Additional observations from a re-analysis of the deposited data

Results flagged for a closer look

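On the Baz1a-/- spermatocyte array that the study set aside, 6 of the 9 tested probes were detected above every Baz1a+/- spermatocyte array, against 18.7% of all tested probes. Nothing is read from this count, because the genes were chosen on mutant spermatids, including those of the same mouse. Spermatid markers were also higher there than on the other spermatocyte arrays, with a mean log2 level of 10.24, and their part in these values was not tested. Rhou read 8.41 there, against 5.60 to 5.78 in Baz1a+/- spermatocytes. Sec11c read 7.67, against 6.09 to 6.55. Zfp532 read 5.70 on its brighter probe, against 4.87 to 5.40, and 4.95 on the other, against 4.71 to 4.85. Ccsap read 5.01, against 4.25 to 4.37, and Alpk2 read 4.80 on its second probe, ILMN_1254484, against 4.28 to 4.64.

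The main Malt1 probe had differences of opposite sign in the cell types, both under 2-fold. Every Baz1a-/- array in the fit lay below every Baz1a+/- array in spermatids, with a difference of -0.56. In spermatocytes those in the fit lay above every Baz1a+/- array, with a difference of 0.28 ± 0.24 (SE). The difference between the cell types was not tested. The array set aside read 6.01, below all 3 Baz1a+/- spermatocyte arrays. Samples far from the rest of a group were not sought, since no group had more than 3 arrays.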

How the results depend on the processing

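Of 654 values of single genes under 26 alternatives, 624 kept their direction and side of the threshold or moved by less than the spread between replicates. Rhou was called in mutant spermatocytes under all 23 alternatives to the fit (log2 difference 1.84 to 3.14). The count of probes called there was 1, became 2 with the left-out array in the fit (Rab4a added), and lay between 1 and 2 without any 1 array (Sec11c added without Baz1a-/- replicate 2). In control development the count of 2 was 1 without background correction, 1 with a normexp offset of 50 (Ccsap lost both times, at 0.51 and 0.68), 1 where the fold of 2 itself was tested and 5 at a fold of 1.5 and adjusted p under 0.1. The median difference over the 7 main probes in spermatids, 1.15, was 0.63 without background correction, and that between mutant cell types, 0.33, was 0.92 where detection on every array of a group was required, as Alpk2 then dropped out.

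Some differences changed sign. Alpk2 in spermatocytes was -0.04 with median scaling and 0 with the left-out array, and -0.13 to 0.40 without 1 array. Sec11c in spermatocytes was -0.36 to 1.05 without 1 array. In control development Rhou was 0 with no filter, 0.05 with equal weights, 0.08 with the replicate block, 0.09 with the replicate block by mouse, which was chosen after seeing the data, and -0.19 to 0.19 without 1 array, and Alpk2 was -0.24 to 0.06 without 1 array.

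With the replicate block, counts of called probes stayed at 1 in spermatocytes and 2 in control development, and it changed no call of the 7 genes, Gm9901 or Taf5l; the genes of the lists were not run with it. Mutant and control arrays share only a number. Their same-numbered deviations correlated at 0.0744 to 0.312 in spermatids and 0.421 to 0.537 in spermatocytes. Between different numbers the correlations were -0.288 to 0.184 in spermatids and -0.537 to 0.147 in spermatocytes. Deviations of the 2 mutant spermatocyte arrays mirror each other, so the spermatocyte values are not independent and cannot show whether the numbers mark pairs. The block moved the calls over all probes to 1180 in spermatids, against 1177, and to 161 in spermatocytes, against 118. The cause of these shifts was not tested. Over all probes, 118 calls in spermatocytes became 4 with only the 2 groups compared, 35 without background correction, 60 with an offset of 50, 187 with median scaling (28.3% higher, against 63.6%, with the median of all probes at -0.16), 788 with the left-out array, 5 where the fold of 2 was tested, 179 at the looser threshold and 31 (without Baz1a+/- replicate 1) to 608 (without Baz1a-/- replicate 2) without 1 array, with 195 without Baz1a-/- replicate 3, 77 without Baz1a+/- replicate 2 and 69 without Baz1a+/- replicate 3. The 1177 calls in spermatids became 310 without background correction, 564 with an offset of 50, 135 where the fold was tested and 2887 at the looser threshold, and the 8168 in control development became 4413 without background correction and 4803 where the fold was tested. Taf5l lost its call only without background correction (-0.89), and Gm9901 kept its call under all 23 alternatives (adjusted p 0.000635 to 0.0473). Signals near background, as for Alpk2, Malt1 and Rab4a, limit these differences to bounds or small values.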
